A study of Mus musculus with 6 samples.

Results

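The cell cycle and DNA replication genes were 53 listed genes of the G1/S transition, DNA replication and mitosis, taken by symbol from the expression table of mouse adaptive regulatory T cells (aTreg). Of these, 51 had a value among the 25759 gene identifiers of the table, and Cdt1 and Gins2 were not analysed here. The 51 comprised 10 G1/S genes, 21 replication genes and 20 mitosis genes, and all 51 had a mean of at least 1 FPKM (fragments per kilobase of transcript, scaled to library size), so each was among the 13413 genes tested.

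aTreg are CD4+ T cells that gain Foxp3, the transcription factor that defines regulatory T cells, when they are activated with TGF-beta. Both groups were C57BL/6 mice aged 8 to 12 weeks that carried a Foxp3-GFP reporter transgene. Cells of lymph nodes and spleen were kept in culture for 3 days with ConA (concanavalin A, which activates T cells) at 2 µg/ml. The medium also held IL-2, a T cell growth factor, at 10 ng/ml and TGF-beta at 3 ng/ml, and CD4+Foxp3GFP+ cells were sorted at the end. The 3 wild type (WT) libraries came from normal B6 mice with the reporter. The 3 BMPR1a-deficient libraries came from BMPR/CD4cre mice with the reporter, in which a Cd4-driven Cre recombinase targets BMPR1a, a receptor of bone morphogenetic proteins. Cd4-driven Cre is known to act in the T cell lineage from the thymus onward. The labels do not say whether the WT mice carried Cre, nor whether the libraries of a group came from separate animals or cultures. The p-values therefore cover the spread among these libraries alone, and that spread may be technical.

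The cell cycle is driven by cyclin-dependent kinases (CDKs) that act with cyclins. In early G1 the D-type cyclins with CDK4 and CDK6 phosphorylate the retinoblastoma protein, which frees E2F transcription factors to switch on the genes of DNA replication. Replication origins are licensed by loading the MCM helicase and are then fired by CDC45 and the GINS complex, and the genes of mitosis are switched on later by B-MYB (Mybl2) and FOXM1 through promoter elements called cell cycle genes homology regions (CHR). Activation makes resting T cells grow and divide, and IL-2 sustains this division, so these genes are a readout of proliferation in culture.

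Promoters of a few members are printed first, because they show the regulatory letters of the replication and mitosis genes side by side. Promoters of 40 of the 51 measured members were matched by symbol in RefSeq (GRCm38.p6), each running from 250 bases before to 50 bases after the transcription start, and the first listed start of each gene was used. The E2F motif was searched as TTTCCCGC, TTTGGCGC, TTTCGCGC or TTTGCCGC, the CHR as TTTGAA or TTCGAA, and the CCAAT box, the element bound by NF-Y, as CCAAT, all on both strands. The promoters printed are a chosen few. Each printed replication promoter holds an E2F match, which 10 of 17 replication promoters lack. Each printed mitosis promoter holds a CHR match, which 4 of 16 mitosis promoters lack. The first 4 promoters are of replication genes, written 5′ to 3′ on the gene's strand with every match to any of the 3 motifs in capitals. They lie at chr1:20820263-20820562 (minus strand) for Mcm3, chr8:75109259-75109558 (plus) for Mcm5, chr1:128359656-128359955 (minus) for Mcm6 and chr5:151651159-151651458 (minus) for Rfc3.
Mcm3: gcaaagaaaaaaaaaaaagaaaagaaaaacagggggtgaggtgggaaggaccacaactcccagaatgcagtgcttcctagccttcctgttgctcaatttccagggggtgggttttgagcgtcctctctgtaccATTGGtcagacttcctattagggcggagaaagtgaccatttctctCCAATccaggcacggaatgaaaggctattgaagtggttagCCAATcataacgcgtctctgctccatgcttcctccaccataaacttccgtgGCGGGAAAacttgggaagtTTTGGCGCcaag
Mcm5: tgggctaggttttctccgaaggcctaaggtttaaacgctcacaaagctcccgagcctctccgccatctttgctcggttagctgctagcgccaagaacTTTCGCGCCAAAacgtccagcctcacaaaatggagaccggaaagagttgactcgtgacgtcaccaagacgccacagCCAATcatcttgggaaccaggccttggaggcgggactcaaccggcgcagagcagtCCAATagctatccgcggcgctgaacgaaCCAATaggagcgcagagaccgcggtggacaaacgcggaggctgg
Mcm6: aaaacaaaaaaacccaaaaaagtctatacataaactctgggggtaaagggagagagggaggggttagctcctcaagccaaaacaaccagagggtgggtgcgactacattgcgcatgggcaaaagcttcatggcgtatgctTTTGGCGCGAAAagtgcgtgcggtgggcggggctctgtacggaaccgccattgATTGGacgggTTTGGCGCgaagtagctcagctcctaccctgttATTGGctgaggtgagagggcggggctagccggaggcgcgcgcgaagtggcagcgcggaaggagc
Rfc3: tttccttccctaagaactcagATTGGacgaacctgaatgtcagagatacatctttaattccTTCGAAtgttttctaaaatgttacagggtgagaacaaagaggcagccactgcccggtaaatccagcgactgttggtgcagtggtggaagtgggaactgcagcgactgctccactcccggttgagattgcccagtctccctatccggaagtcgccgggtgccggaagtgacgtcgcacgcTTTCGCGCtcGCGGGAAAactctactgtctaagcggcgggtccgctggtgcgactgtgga

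In Mcm5, and in the upstream site of Mcm6, the capitals are E2F matches on opposite strands that overlap in 1 run. The E2F motif was found in 7 of 17 replication promoters (41.2%), in 2 of 7 G1/S promoters (those of Cdk2 and E2f2) and in 1 of 16 mitosis promoters (that of Cdk1), against 2.32% of the 27025 promoters of all genes in the same table. The next 5 promoters are of mitosis genes, marked in the same way, at chr9:70421505-70421804 (minus) for Ccnb2, chr10:69352863-69353162 (minus) for Cdk1, chr9:61946750-61947049 (minus) for Kif23, chr7:122159185-122159484 (plus) for Plk1 and chr11:99024140-99024439 (minus) for Top2a.
Ccnb2: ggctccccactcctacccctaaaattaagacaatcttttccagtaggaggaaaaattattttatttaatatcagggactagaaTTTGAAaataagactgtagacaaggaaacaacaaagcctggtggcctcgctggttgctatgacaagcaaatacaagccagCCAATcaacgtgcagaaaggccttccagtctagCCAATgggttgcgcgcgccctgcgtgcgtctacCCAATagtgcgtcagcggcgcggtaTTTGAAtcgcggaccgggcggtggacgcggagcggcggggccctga
Cdk1: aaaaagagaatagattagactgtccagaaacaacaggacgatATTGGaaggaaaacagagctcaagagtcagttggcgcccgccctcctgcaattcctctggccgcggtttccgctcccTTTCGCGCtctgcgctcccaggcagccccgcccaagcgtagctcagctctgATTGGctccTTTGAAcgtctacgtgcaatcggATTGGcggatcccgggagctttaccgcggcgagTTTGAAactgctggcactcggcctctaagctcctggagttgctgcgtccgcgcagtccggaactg
Kif23: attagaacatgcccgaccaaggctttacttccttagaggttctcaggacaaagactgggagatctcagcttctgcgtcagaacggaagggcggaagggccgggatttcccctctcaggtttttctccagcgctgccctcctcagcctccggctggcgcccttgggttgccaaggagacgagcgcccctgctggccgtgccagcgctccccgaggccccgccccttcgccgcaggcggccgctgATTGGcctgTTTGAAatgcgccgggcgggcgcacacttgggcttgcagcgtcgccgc
Plk1: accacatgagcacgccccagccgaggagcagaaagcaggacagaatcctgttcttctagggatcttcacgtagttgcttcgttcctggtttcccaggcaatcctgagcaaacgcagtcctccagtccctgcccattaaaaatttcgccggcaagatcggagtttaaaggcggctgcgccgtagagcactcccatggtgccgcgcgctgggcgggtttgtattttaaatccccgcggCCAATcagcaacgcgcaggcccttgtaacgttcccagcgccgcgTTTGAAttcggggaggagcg
Top2a: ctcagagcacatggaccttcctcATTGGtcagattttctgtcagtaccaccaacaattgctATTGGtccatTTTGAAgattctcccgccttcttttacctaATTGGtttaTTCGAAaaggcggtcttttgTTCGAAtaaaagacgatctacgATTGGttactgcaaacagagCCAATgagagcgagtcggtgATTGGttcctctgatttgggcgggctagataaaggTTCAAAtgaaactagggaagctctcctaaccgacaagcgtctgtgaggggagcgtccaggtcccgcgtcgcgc

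A CHR match stood in 12 of 16 mitosis promoters (75%), in 4 of 17 replication promoters (23.5%) and in 0 of 7 G1/S promoters, against 19.4% of all promoters. In 11 of the 16 mitosis promoters a match lay within 50 bases of the start, against 5.29% of all promoters. All 12 mitosis promoters with a CHR match also held a CCAAT box. That pair of elements was thus in 12 of 16 mitosis promoters (75%), against 7.7% of all promoters. A CCAAT box, with or without a CHR, was in 14 of 16 mitosis and 13 of 17 replication promoters, against 37.9% of all promoters. Matches to different motifs overlapped in 1 member promoter. A match is a run of letters and does not show that a factor binds there.

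**Figure D1:**
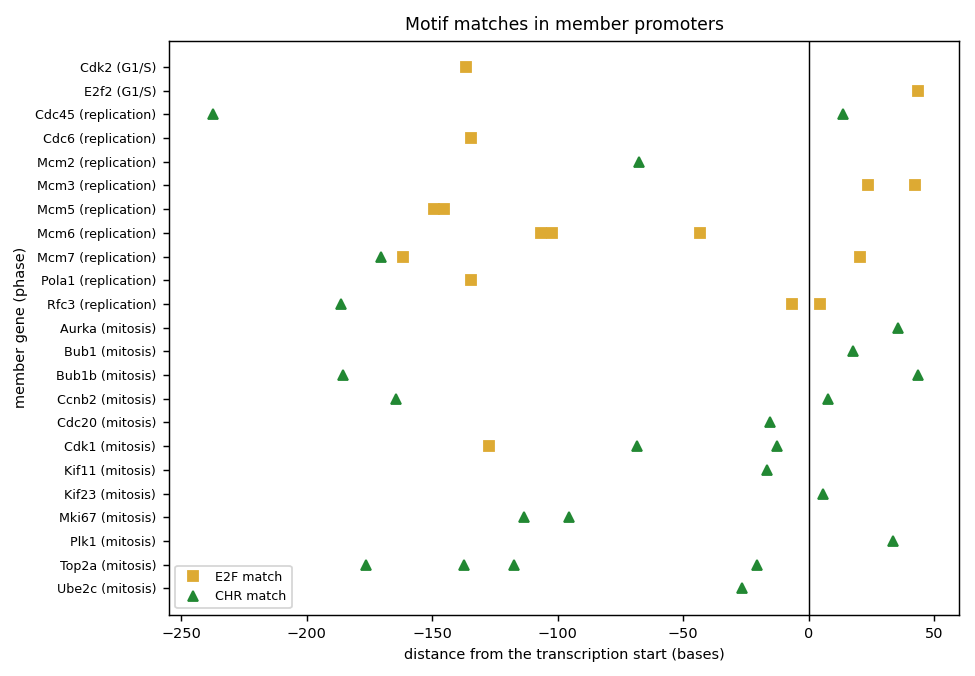
Positions of E2F (squares) and CHR (triangles) motif matches in the promoters of members, with the distance from the transcription start in bases on the x axis and 1 gene in each row. CHR matches lie within 50 bases of the start in 11 of the 12 mitosis genes that have one, Mki67 being the exception, and E2F matches stand mainly in replication genes.

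The members were expressed at very different levels, and these levels, which are per length, ran from 305 FPKM for Top2a to 2.27 FPKM for Cdk6 as means over the 6 libraries. Top2a encodes topoisomerase II alpha, which untangles replicated chromosomes. After it came Pcna, the sliding clamp of the replication fork, at 238 FPKM and Cdk4 at 209. Next were Birc5 (survivin, a subunit of the chromosomal passenger complex) at 162 and Ube2c (a ubiquitin-conjugating enzyme of the anaphase-promoting complex) at 130. At the lower end stood Cdc6 at 13.2, E2f1 at 10.7, Ccne2 at 9.63 and Cdk6 at 2.27. The spread between libraries of 1 gene was small beside this range, and neighbours in the order, such as Ccnb2 at 97.4 and Cdk1 at 96.8, overlapped from library to library.

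**Figure D2:**
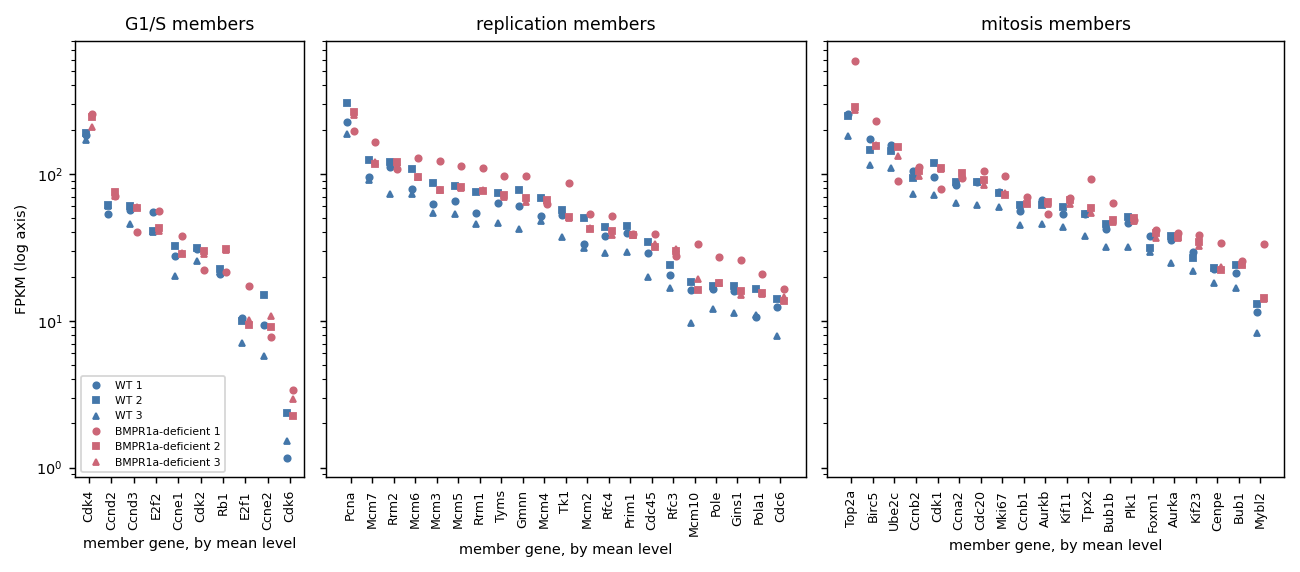
FPKM (log axis) of each member in each of the 6 libraries, by phase and in order of mean level, with WT in blue and BMPR1a-deficient in red. The members span from Cdk6 near 2.27 to Top2a near 305 FPKM, and in most columns the lowest point is WT replicate 3 and the highest BMPR1a-deficient replicate 1.

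No member passed the threshold between genotypes, but most had a positive fold change. In limma on log2(FPKM + 1), with Benjamini-Hochberg adjustment over all 13413 genes at 0.05, 0 of 51 members were higher and 0 lower in BMPR1a-deficient aTreg, where 0.746% of all tested genes were called higher and 0.321% lower (1.07% in either direction). The smallest adjusted p of a member was 0.184 (Rfc3). At an unadjusted p under 0.05, 7 members were higher (Rfc3, Cdk4, Ccnd2, Kif23, Cdk6, Rrm1 and Kif11) and 0 lower, against 9.29% of all tested genes higher and 5.87% lower. The fold change, BMPR1a-deficient minus WT, was above 0 for 47 of 51 members, with a median of 0.31 on the log2 scale. Over all tested genes it was above 0 for 55.5%, with a median of 0.04. The median was 0.28 for the G1/S genes, 0.37 for the replication genes and 0.27 for the mitosis genes. In 13 members every BMPR1a-deficient library lay above every WT library, against 15.9% of all tested genes, and in 0 members the reverse held, against 10.4%. Of these 13, 2 were G1/S, 3 replication and 8 mitosis genes. RNA of sorted bulk cells cannot tell a larger share of dividing cells from more RNA of these genes per cell.

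The positive fold changes went with 1 library on each side. WT replicate 3 was the lowest of the 6 libraries for 44 of 51 members, against 18.9% of all tested genes, and BMPR1a-deficient replicate 1 was the highest for 36, against 28.5%. Both held together for 34 members. On the log2 scale WT replicate 3 minus the mean of the other 2 WT libraries had a median of -0.45 over the members (all tested genes -0.03). BMPR1a-deficient replicate 1 minus the mean of the other 2 of its group had a median of 0.26 (all tested genes -0.11). The median deviation of the members from the gene mean was -0.07, 0.07 and -0.44 in WT replicates 1, 2 and 3 and 0.33, 0.08 and 0.05 in BMPR1a-deficient replicates 1, 2 and 3. Without WT replicate 3 the members' median fold change was 0.15 with 42 positive, without BMPR1a-deficient replicate 1 it was 0.22 with 49 positive, and without both it was 0.05 with 35 of 51 positive. Over all tested genes without both, the median was 0.06 with 8185 of 13413 positive. These 2 libraries were picked after the values were seen, as the lowest of the lower group and the highest of the higher group for most members. Leaving them out therefore shrinks the members' difference by construction, and the values without them are given as descriptions.

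**Figure D3:**
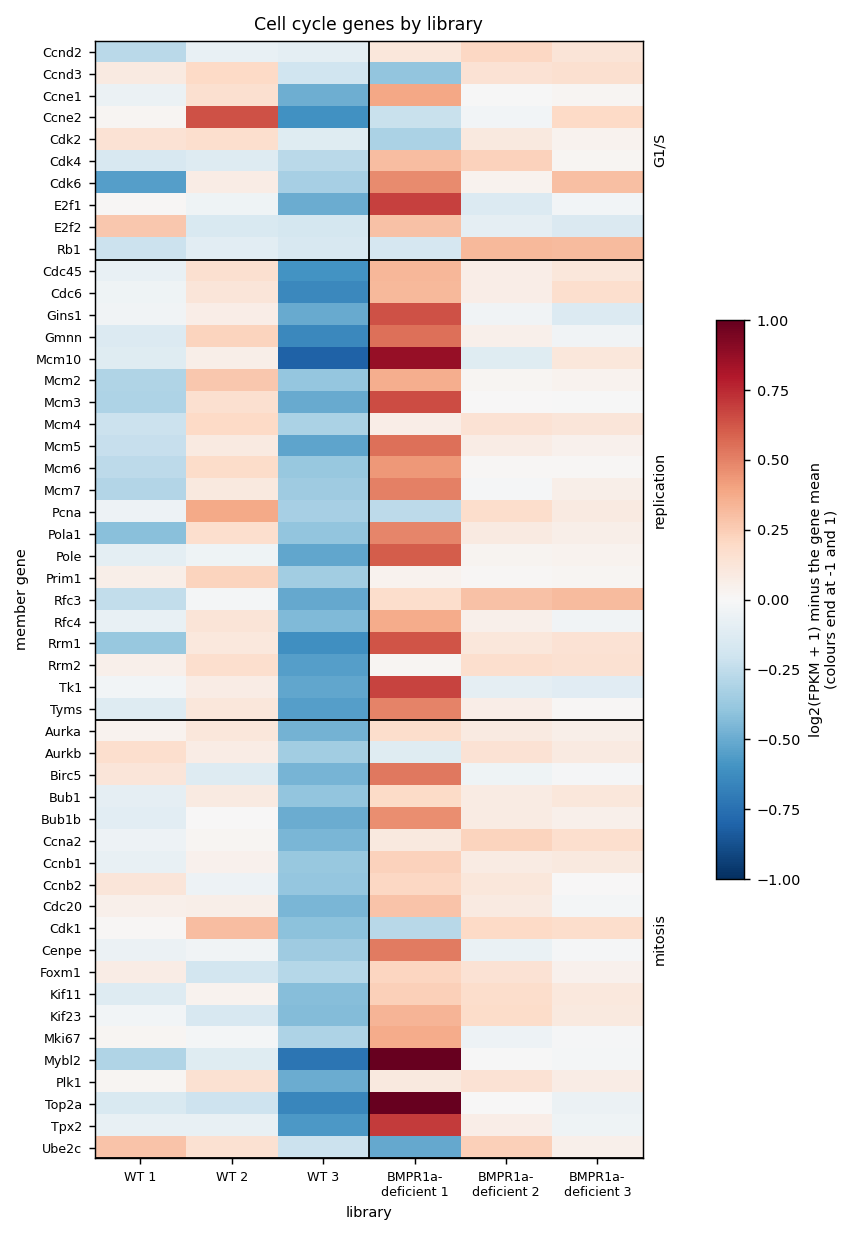
Deviation of log2(FPKM + 1) from each gene's mean (colour, ending at -1 and 1) for the 51 members (rows, by phase) in the 6 libraries (columns). The column of WT replicate 3 is blue for nearly every replication and mitosis gene, and that of BMPR1a-deficient replicate 1 is red for most, with Ccnd3, Cdk2, Pcna, Cdk1 and Ube2c among the blue exceptions.

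BMPR1a-deficient replicate 1 also stood apart outside these genes. It was the lowest library for 5092 of the 13413 tested genes, and the 34 tested mitochondrially encoded transcripts had a median deviation from the gene mean of -2.30 there, against 0.25 to 0.59 in the other 5 libraries. Its values also moved with GC content. With the genes divided into 5 classes of GC content, its median difference from the other libraries of its group went from -0.33 in the class lowest in GC to 0.17 in the highest. Within each class the members' median in that library was above that of all genes, at 0.17 to 0.36. In WT replicate 3 the members' medians lay between -0.53 and -0.39 across the classes, where all genes were between -0.04 and -0.02. The part of GC content or RNA quality in the members' values was not tested. Approximate depths, read from the smallest steps of the FPKM values, were 30700000 to 38700000 fragments in WT and 32500000 to 36500000 in BMPR1a-deficient libraries. Bmpr1a, whose deletion defines the groups, was at 1.39, 2.34 and 1.31 FPKM in WT and 0.439, 0.720 and 0.691 in the BMPR1a-deficient ones. All values of the second group were below all of the first, and none was at 0.

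Defining T cell genes were present in every library, with Cd4 at 329 FPKM or more and Foxp3 at 49.4 or more. Summed over 7 T cell and Treg genes, the level was 2678 to 2721 FPKM in WT and 2506 to 2760 in the BMPR1a-deficient ones. The 6 B cell markers summed to 26.6 to 53.5 FPKM in WT and 38.3 to 53.1 in BMPR1a-deficient libraries, and the 2 CD8 genes to 32.0 to 41.8 and 37.9 to 68.4. The 6 myeloid markers summed to 25.1 to 120 and 13.7 to 102 and were lowest in BMPR1a-deficient replicate 1. The 3 NK cell genes, at 0.122 to 0.207 and 0.642 to 0.782 in sum, and the 5 erythroid genes, at no more than 0.607 in sum, were near 0. No marker was at 0 in all libraries, and Ncr1, the defining NK cell gene of the list, was at 0 in 5. WT replicate 3 was in the middle of its group for myeloid markers and highest for B cell markers. The part of these other cells in the members' values was not tested.

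**Figure D4:**
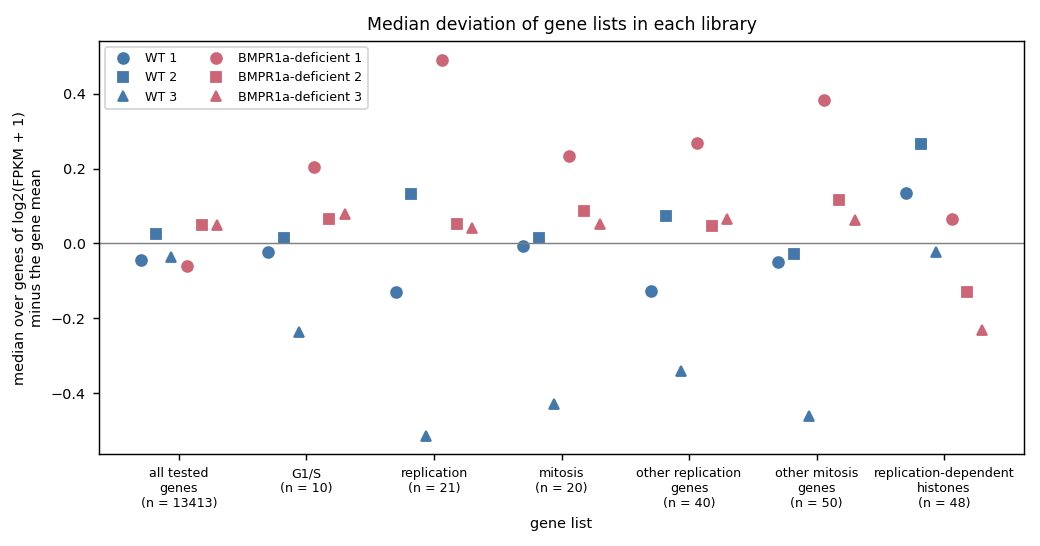
Median over the genes of a list of the deviation of log2(FPKM + 1) from the gene mean, for each library (WT blue, BMPR1a-deficient red) and list. The 3 phases of members put WT replicate 3 lowest and BMPR1a-deficient replicate 1 highest, at -0.51 and 0.49 for the replication genes, while over all tested genes both lie within 0.1 of 0.

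Among the G1/S genes, Ccnd2 and Cdk4 had groups that did not overlap. Ccnd2 (cyclin D2, ENSMUSG00000000184, chromosome 6, 127125162 to 127152193 in GRCm38) was at 53.7, 61.6 and 60.6 FPKM in the WT libraries and 70.5, 75.1 and 71.1 in the BMPR1a-deficient ones. All 3 BMPR1a-deficient libraries lay above all 3 WT libraries, and with any 1 library left out the log2 fold change was 0.24 to 0.33. With all 6 it was 0.30 (SE 0.099, limma adjusted p = 0.256), and 0.34 without WT replicate 3 and BMPR1a-deficient replicate 1. Ccnd3 (cyclin D3) was at 56.4, 60.7 and 45.9 in the WT libraries and 39.9, 58.4 and 59.2 FPKM in BMPR1a-deficient aTreg, so the groups overlapped, and its lowest value was in BMPR1a-deficient replicate 1. The ratio of Ccnd2 to Ccnd3 was 1.10 ± 0.197 in WT and 1.42 ± 0.305 in the other group (SD, n = 3, exact permutation test, two-sided p = 0.3, where 0.1 is the smallest that 3 against 3 allow). Cdk4, a kinase partner of the D-type cyclins, was at 185, 190 and 171 FPKM in the WT libraries and 257, 243 and 209 in the BMPR1a-deficient ones. Its groups did not overlap either, with a log2 fold change of 0.37 (SE 0.123, limma adjusted p = 0.255). Cdk6, the second such kinase, was far lower at 1.17, 2.34 and 1.53 in the WT libraries and 3.40, 2.26 and 2.91 FPKM. The groups overlapped by a small margin, because 1 WT library was just above 1 BMPR1a-deficient library (log2 fold change 0.54, SE 0.207, limma adjusted p = 0.311).

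Rb1, which encodes the retinoblastoma protein that holds E2F in check, showed another order of libraries. It was at 20.8, 22.5 and 21.6 FPKM in the WT libraries and 21.4, 30.6 and 30.3 in the BMPR1a-deficient ones. The WT libraries were close together, BMPR1a-deficient replicate 1 lay among them, and the other 2 BMPR1a-deficient libraries lay above. The log2 fold change was 0.31 (SE 0.156, limma adjusted p = 0.400). Another fit gave each library a weight by its spread. BMPR1a-deficient replicates 1, 2 and 3 counted at 0.117, 4.19 and 2.45 there. WT replicates 1, 2 and 3 counted at 0.945, 0.568 and 1.56. With these weights 3 members passed the threshold: Rb1 (0.48, limma adjusted p = 0.0159), Rfc3 (0.64, adjusted p = 0.0230) and Ccnd2 (0.32, adjusted p = 0.0425). In that fit 6.21% of all genes were called higher. Leaving BMPR1a-deficient replicate 1 out instead gave 0 called members, where 0.999% of all genes were called higher.

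The E-type cyclins and their kinase, which commit a cell to S phase, did not separate the groups. Ccne1 was at 27.6, 32.2 and 20.2 FPKM in the WT libraries and 37.9, 28.6 and 29.1 in the BMPR1a-deficient ones. Ccne2 had means of 10.0 ± 4.64 FPKM in WT and 9.22 ± 1.49 in BMPR1a-deficient libraries. The groups of both genes overlapped, with log2 fold changes of 0.26 (SE 0.201) and -0.03 (SE 0.318). Cdk2 was at 30.9, 31.3 and 25.5 in the WT libraries and 22.1, 29.7 and 28.4 FPKM in the BMPR1a-deficient libraries, and its lowest value was again in BMPR1a-deficient replicate 1 (log2 fold change -0.13, SE 0.150). E2f1, an activator E2F, was at 10.5, 10.0 and 7.03 in the WT libraries and 17.3, 9.34 and 10.2 FPKM. One BMPR1a-deficient library stood above all others, and without it and WT replicate 3 the log2 fold change went from 0.35 to -0.06. E2f2 was higher in level than E2f1, with means of 45.2 ± 8.41 FPKM in WT and 46.5 ± 8.15 in BMPR1a-deficient libraries. Replicate 1 was the highest of each group, at 54.9 and 55.9 FPKM.

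The licensing and helicase genes mostly had 1 low WT and 1 high BMPR1a-deficient library. Cdc6, the loader of the MCM helicase, was at 12.5, 14.1 and 7.86 FPKM in the WT libraries and 16.4, 13.5 and 14.6 in the BMPR1a-deficient ones. Gmnn, which encodes geminin, the inhibitor of a second round of licensing, was at 60.2, 77.5 and 42.0 against 97.5, 68.5 and 64.6. In both, the groups overlapped through WT replicate 2. The log2 fold changes were 0.37 for each (SE 0.214 for Cdc6 and 0.266 for Gmnn), and 0.08 and -0.04 without the 2 libraries. The 6 subunits of the helicase ring, Mcm2 to Mcm7, had mean levels of 42.3, 80.0, 60.1, 79.4, 96.2 and 119 FPKM. Mcm2 was at 33.6, 50.4 and 31.5 in the WT libraries and 53.7, 42.1 and 42.7 FPKM in the BMPR1a-deficient libraries, and Mcm5 at 65.8, 82.5 and 53.5 against 114, 81.6 and 79.7. In both genes WT replicate 2 lay above BMPR1a-deficient replicates 2 and 3. Each subunit had a positive log2 fold change, from 0.22 for Mcm4 to 0.44 for Mcm5, with limma adjusted p from 0.385 to 0.551.

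Mcm10 and Cdc45, which turn the loaded ring into a moving helicase, and the GINS subunit Gins1 followed. Mcm10 was at 16.2, 18.5 and 9.69 FPKM in the WT libraries and 33.3, 16.2 and 19.2 in the BMPR1a-deficient ones. It was lowest and highest in the same 2 libraries. Its log2 fold change of 0.58 (SE 0.334) became 0.02 without them. Cdc45 was at 28.9, 34.3 and 19.8 against 38.7, 32.0 and 33.1 FPKM (log2 fold change 0.34, SE 0.210). Gins1 had means of 14.9 ± 3.17 FPKM in WT and 19.0 ± 6.16 in BMPR1a-deficient libraries (SD, n = 3).

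At the replication fork, Rfc3 was the member with the smallest p. It encodes a subunit of the clamp loader, which opens PCNA onto DNA (ENSMUSG00000033970, chromosome 5, 151642756 to 151651242 in GRCm38), and its promoter is printed above with an E2F match on each side of the start. Rfc3 was at 20.4, 23.9 and 16.7 FPKM in the WT libraries and 27.6, 30.0 and 30.6 in the BMPR1a-deficient ones. All BMPR1a-deficient libraries lay above all WT ones, and here BMPR1a-deficient replicate 1 was the lowest of its group. The log2 fold change was 0.52 (SE 0.143, limma adjusted p = 0.184) and 0.44 without the 2 libraries. Rfc4, another subunit of the same loader, had overlapping groups with means of 36.6 ± 7.35 FPKM in WT and 43.6 ± 6.81 in BMPR1a-deficient libraries. Pcna, the clamp itself, was at 226, 305 and 186 in the WT libraries and 195, 265 and 250 FPKM in the BMPR1a-deficient ones. Its lowest and highest values were both in WT, and the log2 fold change was 0.00 (SE 0.221). Among the polymerases, Pole, the leading-strand enzyme, had groups that did not overlap, at 16.4, 17.1 and 12.0 against 27.3, 18.0 and 18.1 FPKM (log2 fold change 0.44, SE 0.213). Pola1 and Prim1, subunits of the complex that makes primers, had log2 fold changes of 0.43 (SE 0.206) and 0.04 (SE 0.159).

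Of the genes that supply deoxynucleotides, Rrm1, the large subunit of ribonucleotide reductase, was at 53.8, 75.7 and 45.7 FPKM in the WT libraries and 109, 76.1 and 77.8 in the BMPR1a-deficient ones. The groups were separated by less than 1 FPKM between WT replicate 2 and BMPR1a-deficient replicate 2. Its log2 fold change was 0.59 (SE 0.234, limma adjusted p = 0.321), the largest of the replication genes. Rrm2, the small subunit of the same enzyme, was at 111, 120 and 72.6 against 108, 120 and 119 FPKM, so WT replicate 3 stood below the other 5 libraries. Tyms, thymidylate synthase, was at 62.9, 74.5 and 46.6 against 97.2, 72.1 and 69.2, and Tk1, thymidine kinase, at 52.7, 56.5 and 37.1 against 86.7, 50.5 and 49.7. In both, WT replicate 3 was the lowest library and BMPR1a-deficient replicate 1 the highest, and the groups overlapped. The log2 fold change was 0.38 for Tyms and 0.32 for Tk1, and 0.05 and -0.12 without the 2 libraries.

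**Figure D5:**
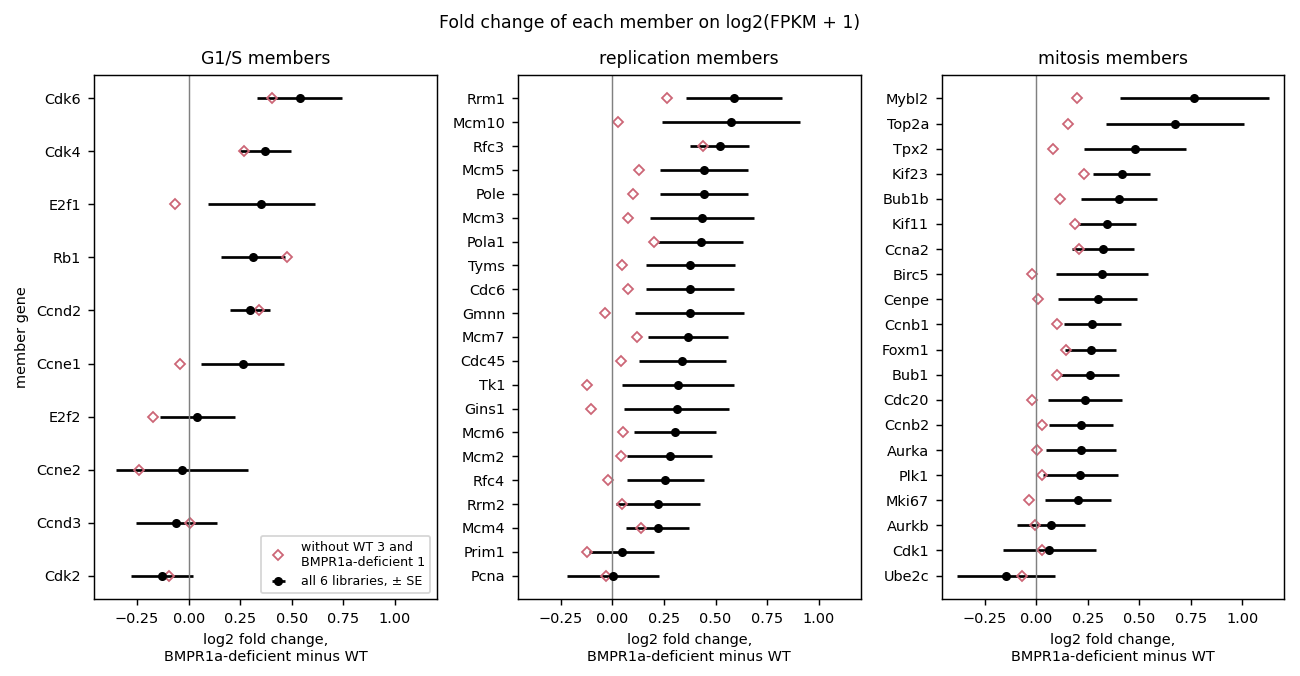
Log2 fold change (BMPR1a-deficient minus WT, on log2(FPKM + 1)) of each member by phase, with the SE as bars (filled points, all 6 libraries), and the same without WT replicate 3 and BMPR1a-deficient replicate 1 (open diamonds). Most diamonds lie near 0, and those of Ccnd2, Rb1, Cdk6, Cdk4, Rfc3 and Rrm1 are between 0.27 and 0.48. The lowest diamonds are those of Ccne2 at -0.24 and E2f2 at -0.17.

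Among the mitosis genes, the transcription factors of the programme had unlike values. Mybl2 (B-MYB) was at 11.4, 13.0 and 8.20 FPKM in the WT libraries and 33.4, 14.2 and 14.0 in the BMPR1a-deficient ones. The groups did not overlap, but replicates 2 and 3 of the BMPR1a-deficient group were only just above WT. Its log2 fold change of 0.77 (SE 0.361, limma adjusted p = 0.378) was the largest of all members and was 0.20 without the 2 libraries. Foxm1 was at 37.7, 31.4 and 29.2 against 41.7, 39.6 and 36.8 FPKM, with groups that overlapped by a small margin (0.26, SE 0.124). Top2a, whose promoter above holds 4 CHR matches and 6 CCAAT boxes, had the highest single value of all members. It was at 256, 246 and 180 in the WT libraries and 591, 285 and 273 FPKM in the BMPR1a-deficient ones. BMPR1a-deficient replicate 1 was far above the other 5 libraries (log2 fold change 0.67, SE 0.336, and 0.15 without the 2 libraries). Mki67, the marker used to stain dividing cells, was at 75.5, 73.5 and 59.9 against 96.4, 71.6 and 73.9 FPKM. The same 2 libraries were its lowest and highest, and the groups overlapped. The log2 fold change was 0.20 (SE 0.161), and -0.03 without them.

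The mitotic cyclins and their kinase came next. Ccna2 (cyclin A2) was at 84.0, 88.5 and 63.1 FPKM in the WT libraries and 93.3, 102 and 98.1 in the BMPR1a-deficient libraries, and Ccnb1 (cyclin B1) at 56.2, 61.1 and 45.1 against 69.6, 62.6 and 63.2. Neither gene's groups overlapped, with gaps of a few FPKM (log2 fold changes 0.32, SE 0.151, and 0.27, SE 0.138). Ccnb2 overlapped, with means of 90.5 ± 15.9 FPKM in WT and 104 ± 7.25 in BMPR1a-deficient libraries. Cdk1, the kinase they activate, was at 95.9, 118 and 71.4 in the WT libraries and 78.4, 110 and 107 FPKM in the BMPR1a-deficient ones. Here BMPR1a-deficient replicate 1 was below the other 2 of its group, while for Ccnb1 and Ccnb2 it was the highest (log2 fold change 0.06, SE 0.228).

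Kinesins of the spindle gave the smallest p among the mitosis genes. Kif23, a motor of the central spindle that is needed for cytokinesis (ENSMUSG00000032254, chromosome 9, 61915905 to 61946774 in GRCm38), was at 29.5, 26.7 and 21.9 FPKM in the WT libraries and 38.3, 34.2 and 32.1 in the BMPR1a-deficient ones. The groups did not overlap, and the log2 fold change was 0.41 (SE 0.138, limma adjusted p = 0.257). Kif11, the motor that pushes spindle poles apart, was at 53.2, 59.7 and 43.2 against 68.7, 66.0 and 62.6 FPKM, again without overlap (0.34, SE 0.140). The spindle assembly factor Tpx2 and the checkpoint kinase gene Bub1b also had groups without overlap, while those of Bub1 and Cenpe overlapped. The mitotic kinases Plk1, Aurka and Aurkb had groups that overlapped. Plk1 was at 46.1, 50.5 and 31.9 in the WT libraries and 48.6, 50.4 and 47.9 FPKM in BMPR1a-deficient aTreg, so WT replicate 3 alone stood low. Aurkb was at 66.0, 61.6 and 45.9 against 53.7, 64.7 and 62.4 FPKM. Its groups overlapped, with a log2 fold change of 0.07 (SE 0.166).

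The last members act in late mitosis. Cdc20, the activator of the anaphase-promoting complex, was at 88.2, 88.6 and 61.8 FPKM in the WT libraries and 104, 90.7 and 83.9 in the BMPR1a-deficient ones. Ube2c, which works with the same complex, was at 156, 142 and 110 against 89.6, 152 and 133 FPKM. BMPR1a-deficient replicate 1 was thus the highest library for Cdc20 and the lowest for Ube2c. Their log2 fold changes were 0.24 (SE 0.178) and -0.15 (SE 0.237), the second being the lowest of all members, though it was 0.07 without BMPR1a-deficient replicate 1 and 0.15 with sample weights. Birc5 was at 172, 145 and 114 in the WT libraries and 229, 154 and 157 FPKM in BMPR1a-deficient aTreg, with overlapping groups (0.32, SE 0.223).

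The fold changes can be set beside the motifs. Mitosis genes with a CHR match had a median log2 fold change of 0.23 (12 genes) and those without 0.31 (4 genes). Replication genes with an E2F match had a median of 0.43 (7 genes) and those without 0.30 (10 genes). These medians are descriptions of a few genes each, with no test.

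Further genes of the same phases, none of them members, gave these values. Of 40 other replication genes, 33 had a positive fold change, with a median of 0.29, and of 50 other mitosis genes 47, with a median of 0.35. None of either list passed the threshold in limma, where 5 and 12 were higher at an unadjusted p under 0.05 and 0 lower (all tested genes 9.29% and 5.87%). Groups did not overlap, with the BMPR1a-deficient libraries higher, in 10 of the 40 and 24 of the 50, against 15.9% of all tested genes. WT replicate 3 was the lowest library for 28 and 46 of them, and BMPR1a-deficient replicate 1 the highest for 23 and 33. Without these 2 libraries the medians were 0.07 and 0.12, with 33 and 41 positive. Those with the smallest p were Gins3, a GINS subunit (log2 fold change 0.43, limma adjusted p = 0.189), and Pola2, a subunit of the primer-making polymerase (0.28, adjusted p = 0.282). Among the mitosis genes they were Ttk, a spindle checkpoint kinase (0.48, limma adjusted p = 0.188), and Melk (0.64, adjusted p = 0.190). Ttk was at 11.8, 12.2 and 9.13 FPKM in the WT libraries and 17.0, 14.7 and 15.3 in the BMPR1a-deficient libraries, and Melk at 14.0, 15.3 and 10.1 against 24.5, 19.1 and 19.3. In both, every BMPR1a-deficient library was above every WT library.

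Of 21 tested other G1/S genes, 16 had a positive fold change with a median of 0.14, and 0 passed the threshold in limma (2 higher and 0 lower at an unadjusted p under 0.05). WT replicate 3 was the lowest library for 13 of the 21, but BMPR1a-deficient replicate 1 was the highest for 3 and the lowest for 6. Without these 2 libraries the median was 0.16 with 19 of 21 positive. E2f7, an E2F that represses its targets late in S phase, was at 3.04, 2.81 and 2.36 FPKM in the WT libraries and 5.47, 4.14 and 4.19 in the BMPR1a-deficient ones. Its groups did not overlap (log2 fold change 0.58, SE 0.141, limma adjusted p = 0.149), and neither did those of Tfdp2, a dimer partner of E2F (0.25, SE 0.097, adjusted p = 0.315). Of 7 CDK inhibitor genes 4 were tested, 2 with a positive and 2 with a negative fold change. In limma 0 of them passed (1 higher and 0 lower at an unadjusted p under 0.05). Cdkn2c, which encodes the CDK4 and CDK6 inhibitor p18, was at 25.8, 23.5 and 20.2 FPKM in the WT libraries and 39.4, 32.3 and 29.0 in BMPR1a-deficient aTreg, without overlap (log2 fold change 0.52, SE 0.151, limma adjusted p = 0.206). Cdkn1a was at 5.38, 18.8 and 4.38 against 14.3, 11.7 and 24.9 FPKM, with overlapping groups (0.96, SE 0.548, adjusted p = 0.450).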

How the data were processed

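Transcripts of sorted aTreg were measured by RNA-seq in 6 libraries, 3 from WT and 3 from BMPR1a-deficient mice. Total RNA was isolated with a Qiagen kit, per the labels' protocols. The values deposited by the authors are FPKM from TopHat2, Cufflinks and Cuffdiff on GRCm38.p4, per the submitters' processing notes. Versions, annotation, strand handling and scaling between libraries were not given in the sources used here. The table has no read counts, so count models could not be applied, and the depths are estimates, read from the commonest low FPKM times length over 3433 genes with 1 annotated transcript, in a preset window that limits the possible answers.

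Symbols were taken from GENCODE M21 (GRCm38), which named 24876 of 25759 identifiers. Values were set to log2(FPKM + 1), which understates the change of low genes. The 13413 genes with a mean of at least 1 FPKM were fitted by limma 3.58.1 (R 4.3.3, eBayes with trend, two-sided, Benjamini-Hochberg at 0.05). The fit was tried on simulated data with independent noise in each gene. That trial had no shift shared by the genes of a library, so it does not cover such shifts. GC content was that of the longest annotated transcript.

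The members and lists were chosen with earlier results of these data known. The genes named are a set list of members and, in each phase, those with the smallest p, the largest and smallest fold change and the highest and lowest level. Of other lists they are the genes called, or else the pair with the smallest p. Genes outside this rule (Ccne2, Gins1, Mcm3, Mcm4, Mcm6, Mcm7, Rfc4, Pole, Pola1, Prim1, Ccnb2, Tpx2, Bub1, Bub1b, Cenpe, Aurka) were named for their role or because their groups did not overlap, after their values were seen. Alternative fits changed the filter, pseudocount, scaling, variance model, sample weights, replicate block, biotype and the libraries used. The fit without 2 libraries was added after the data were seen. No 2 columns were identical, and 0 columns were left unmapped.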

Additional observations from a re-analysis of the deposited data

How the results depend on the processing

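With 3 libraries a group and no counts, small differences could not be called at this precision. Of the alternatives run, the sample weights alone called any member (3 higher, 0 lower), and every alternative gave 0 members called lower. With sample weights the members' median log2 fold change was 0.32 with 50 of 51 positive, and with upper-quartile scaling 0.27 with 45 positive. For all 13413 tested genes these medians were 0.08 and -0.002, with 8598 and 6669 positive. Over all genes, the number called higher was 155 with FPKM 1 required in 3 libraries, 833 with sample weights and 202 among protein-coding genes only, and the number lower was 407 with sample weights, 94 among protein-coding genes and 70 after quantile normalization. Leaving out 1 library at a time gave 10 to 134 genes higher and 4 to 76 lower, with both ends of each range set by WT replicate 3 (low) and BMPR1a-deficient replicate 1 (high), and leaving out both gave 16 and 5. The members' median log2 fold change ran from 0.15 to 0.41 with 1 library left out and was 0.046 without both. The same range was 0.13 to 0.34 for G1/S (-0.018 without both), 0.15 to 0.51 for replication (0.048) and 0.16 to 0.35 for mitosis (0.056). Signs turned at least once in 14 of 46 named genes. This count and the ranges below include the fit without both libraries, which shrinks the members' difference by construction. Birc5, Ccne1, Cdc20, E2f1, Gmnn, Mki67 and Tk1 stayed positive with any 1 library left out. Their lowest values in those fits ran from 0.060 (Tk1) to 0.14 (Gmnn). Without both libraries the log2 fold change was -0.0042 for Aurkb, -0.021 for Birc5, 0.0090 for Ccnd3, -0.044 for Ccne1, -0.019 for Cdc20, -0.064 for E2f1, -0.17 for E2f2, -0.036 for Gmnn, -0.034 for Mki67, -0.029 for Pcna and -0.12 for Tk1. With sample weights it was 0.18 for Ccnd3, 0.050 for Cdk2, -0.066 for E2f2 and 0.15 for Ube2c. With upper-quartile scaling it was -0.0018 for E2f2 and -0.042 for Pcna, and with median-of-ratios scaling -0.033 for Pcna. Over all fits that left libraries out it ran from -0.084 to 0.17 for Aurkb, -0.021 to 0.46 for Birc5, -0.17 to 0.12 for Ccnd3, -0.044 to 0.41 for Ccne1, -0.019 to 0.32 for Cdc20, -0.13 to 0.23 for Cdk1, -0.064 to 0.51 for E2f1, -0.17 to 0.19 for E2f2, -0.036 to 0.58 for Gmnn, -0.034 to 0.28 for Mki67, -0.16 to 0.19 for Pcna, -0.12 to 0.46 for Tk1 and -0.30 to 0.073 for Ube2c. The cause was not tested.

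The samples were not treated as paired in the main fit. Deviations of same-numbered libraries correlated at 0.01, 0.06 and 0.05, and those of differently numbered ones at -0.09 to 0.04. With 3 libraries a group, such correlations cannot show whether same-numbered libraries were prepared together. With the replicate block 5 genes were called higher and 5 lower, and 0 members.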

Other observations

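The replication-dependent histone genes, whose RNA is made in S phase and mostly lacks a poly(A) tail, had mostly negative fold changes. They were taken by the beginning of their symbol, so the list and its counts also hold copies annotated as pseudogenes. Of 59 listed, 48 were tested, and 42 of the 48 had a negative fold change, with a median of -0.26. None passed the threshold in limma, and at an unadjusted p under 0.05 there were 13 lower and 0 higher. In 17 of them every BMPR1a-deficient library lay below every WT library, against 10.4% of all tested genes, and in 0 above. Hist1h3a was at 4.60, 6.22 and 4.75 FPKM in the WT libraries and 2.15, 2.65 and 2.59 in the BMPR1a-deficient ones. The linker histone gene Hist1h1c was at 7.47, 8.27 and 7.65 against 5.22, 4.67 and 5.74. Neither gene's groups overlapped, with log2 fold changes of -0.83 (SE 0.141, limma adjusted p = 0.0654) and -0.51 (SE 0.104, adjusted p = 0.0997). Hist1h3a passed the threshold under 6 alternatives, among them all 3 other scalings, and with sample weights 10 of the 48 were called, against 1240 of all 13413 tested genes.

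Within each group most histone genes, but not all, had the library order of the replication members. WT replicate 3 was below both other WT libraries for 34 of the 48 (median difference -0.28), against 33.4% of all tested genes. BMPR1a-deficient replicate 1 was above both others of its group for 31 (median difference 0.22), against 35.4%. For the 21 replication members these medians were -0.47 and 0.42. The difference between the lists in fold change between genotypes was not tested. Over all 6 libraries WT replicate 3 was the lowest for 7 histone genes. BMPR1a-deficient replicate 1 was the lowest for 13 histone genes, Hist1h3a included, but for 0 of the 21 replication members. The lowest median deviation of the histone genes was -0.23, in BMPR1a-deficient replicate 3. Without WT replicate 3 and BMPR1a-deficient replicate 1 the median was -0.40, with 1 of 48 positive. These genes are near-identical copies, so how their reads were shared out is uncertain. The labels do not say how poly(A) RNA was handled. Of the 34 tested mitochondrially encoded transcripts 1 was called lower: mt-Tt was listed at 0 in the BMPR1a-deficient libraries. In the WT libraries it was at 2031, 2533 and 1641 FPKM. Its transcript is only 67 bases long. The transcript mt-Th, of the same length, had the same 1641 FPKM in WT replicate 3 and 0 in WT replicates 1 and 2. Values of this size may thus rest on very few fragments, so the call does not show a loss of mt-Tt.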
